A study of Mus musculus with 4 samples.

Results

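Hspa1-high cells are alveolar type 2 (AT2) cells that carried many transcripts of the inducible Hsp70 genes Hspa1a and Hspa1b. They were taken from 1 single-cell RNA-seq library, that of uninjured 3-month-old mice given PBS. A cell was counted as high when it had at least 500 detected genes, at most 20% mitochondrially encoded transcripts, at least 5% of its unique molecular identifiers (UMIs, counted transcript molecules) from Sftpc, and 3 or more UMIs of Hspa1a and Hspa1b together. The 5% Sftpc requirement is called the gate below. Of 10911 cell barcodes in the series, 2452 belonged to the 3-month PBS library, 2308 of these met the gate, and 565 were Hspa1-high. They were set against the 913 gated cells of that library with 0 UMIs of both genes, called zero cells. The other 830 gated cells had 1 or 2.

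All 4 libraries were made from Sftpc-creER;Rosa26-mTmG mice. Tamoxifen in these mice switches cells with an active Sftpc promoter, and their descendants, to membrane GFP. All groups received 4 doses of tamoxifen, and 14 days later either PBS or 0.8 U/kg bleomycin, an alveolar toxicant, into the trachea. The sort took GFP-positive cells that lacked the leukocyte marker CD45 and the endothelial marker CD31, from 3 pooled mice per library. The groups were PBS at 3 months, PBS at 12 months (both day 0), bleomycin at 3 months and bleomycin at 12 months (both day 30). Each group was 1 library, and the cells of a library are not replicates, so no comparison below has a test. All intervals are 95% intervals, exact, and reflect counting error alone. The cells were selected on their measured Hspa1a, Hspa1b and Sftpc UMIs, so those levels are a description.

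Heat-shock proteins of the HSP70 family bind exposed hydrophobic stretches of other proteins and help them fold, refold or be degraded. Hspa8 is the constitutive family member, whereas Hspa1a and Hspa1b are switched on by heat, proteotoxic stress and tissue handling through the transcription factor HSF1. HSP70 works with J-domain proteins (DNAJ) that deliver substrates, with nucleotide exchange factors such as HSP110 and BAG proteins, with HSP90, and with small heat-shock proteins that hold unfolded protein. AT2 cells make and secrete surfactant, a lipid and protein film, and so carry a heavy secretory load. HSF1 binds heat-shock elements, alternating inverted GAA units spaced by 2 bases.

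Those elements are shown here because Hspa1a and Hspa1b differ from most genes in carrying one just upstream. Several genes that were higher in the same cells carried one too, and others, such as Dnajb1, did not. In the RefSeq promoter windows (GRCm38.p6, 250 bases before to 50 after each start) the pair of windows was identical at 296 of 300 positions. The stretch below was the same in both, at chr17:34972207-34972286 for Hspa1a and chr17:34959289-34959368 for Hspa1b, on the minus strand. Hspb1 is shown at chr5:135887779-135887858 (plus strand) for its 2 separate matches, and Hspe1 at chr1:55088053-55088082 (plus strand) for a run of overlapping ones, in DNA that a transcript of the neighbouring Hspd1 also covers on the other strand. Capitals mark GAANNTTC or TTCNNGAA.
Hspa1a and Hspa1b: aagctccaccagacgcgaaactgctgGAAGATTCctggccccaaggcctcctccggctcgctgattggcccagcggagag
Hspb1: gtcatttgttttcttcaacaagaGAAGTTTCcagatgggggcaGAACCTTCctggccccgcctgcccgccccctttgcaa
Hspe1: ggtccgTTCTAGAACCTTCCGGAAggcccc

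Both motifs read the same on either strand, and the longer ones contain the shorter. Of 32851 windows, 15.1% held GAANNTTC or TTCNNGAA, and 0.603% held the longer GAANNTTCNNGAA or TTCNNGAANNTTC. Of the 17 heat-shock genes described below, 12 had a window. The shorter motif was in 8 of these 12 genes (66.7%), against 17.0% of all 27025 genes with a window. It was in no window of Dnajb1, Cacybp, Stip1 or Ahsa1, and in Hspb8 and Bag3 it lay after the start. The longer one was in 3 of 12 (Hspd1, Hspe1 and Hsph1, 25%), against 0.662% of all genes. Hspd1 and Hspe1 share 1 run of the motif between them, so these are 2 separate sites, and both genes also count among the 8. The genes were picked as heat-shock genes, so these shares describe the list and not the cells. A link between the motif and the ratios below was not tested. A match is a string of letters and not a measured binding site.

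In the 3-month PBS library, 24.5% of gated cells were Hspa1-high (565 of 2308, 22.7 to 26.3), and 39.6% were zero cells. The 12-month PBS library had 0 such cells of 2570, which allows a share of up to 0.143%. The 3-month bleomycin library had 18 of 2299 (0.783%, 0.465 to 1.23), and the 12-month bleomycin library 26 of 2450 (1.06%, 0.694 to 1.55). Median depth was the lowest in the library that held nearly all high cells: gated cells had a median of 4563.5 UMIs there, against 5137.5, 8552 and 12520 in the other 3 in the same order. With each cell thinned to 3000 UMIs, 15.6% of 1952 cells still had 3 or more (14.0 to 17.3), against 0 of 2328, 0.178% of 2244 and 0.0408% of 2450. The thinning left out 356, 242, 55 and 0 shallower cells. Each library is 1 age and 1 treatment, so the handling of a library and its group cannot be told apart. Cells outside the gate also carried the pair: 25 of 86 in the 3-month PBS library had 3 or more UMIs (29.1%, 19.8 to 39.9, median depth 3607.5 UMIs). Of 5 such cells with 3 or more macrophage marker UMIs, 1 had any Hspa1 UMI. For endothelial, ciliated, club and mesenchymal markers it was 8 of 12, 13 of 20, 51 of 81 and 3 of 5. For B and plasma cell and neutrophil markers it was 1 of 2 and 0 of 1. A cell can count for several lists. The club markers do not single out club cells at this limit, as 81 of the 86 cells met it. High and zero AT2 cells thinned to 3000 UMIs had a median of 19 UMIs of these markers. As every cell type can induce Hspa1, none served as a blank for free RNA, whose part in the lowest counts was not tested. The library shared 8, 7 and 11 barcodes with the other 3, of which 1, 1 and 4 belonged to high cells. Hspa1a and Hspa1b were also summed over gated cells, as UMIs scaled to the same total (CPM). Together they were at 383 CPM (371 to 394) in the 3-month PBS library and 7.15 CPM in the 12-month PBS library. The level was 13.8 CPM (12.3 to 15.5) in the 3-month and 14.4 CPM (13.1 to 15.8) in the 12-month bleomycin library. This is the order of the shares before thinning, and the intervals of the bleomycin libraries overlapped.

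**Figure D1:**
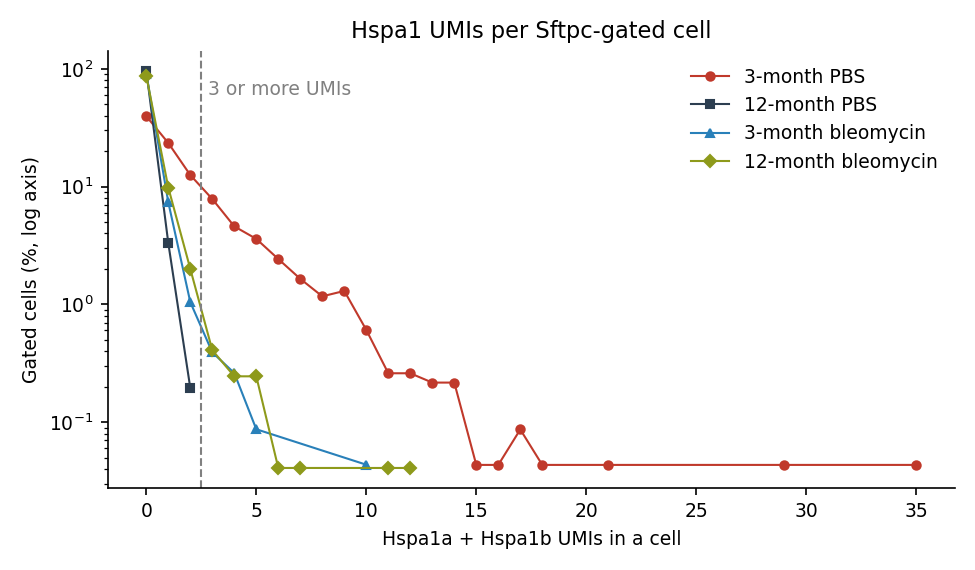
Percentage of gated cells (log axis) at each number of Hspa1a plus Hspa1b UMIs, 1 point per number that occurred, for the 4 libraries; the dashed line marks the limit of 3 UMIs. The 3-month PBS cells decline across the limit without a gap, up to 35 UMIs in 1 cell, while no 12-month PBS cell passed 2.

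The number of cells declined over the Hspa1 UMIs, without a gap at the limit. In the 3-month PBS library 541 gated cells had 1 Hspa1 UMI, 289 had 2, 181 had 3, 106 had 4 and 83 had 5, and the numbers declined to single cells at 29 and 35. Just inside the limit, the 181 cells at 3 UMIs had Hspa1 at 606 CPM, and just outside it the 289 cells at 2 UMIs had 421 CPM, values that the limit itself sets. The other heat-shock genes summed to 5406 CPM (5255 to 5561) in the cells at 3 and 5125 CPM (5006 to 5247) in the cells at 2, before thinning. Of the 565 high cells, 278 had 5 or more UMIs and 44 had 10 or more. At 3000 UMIs per cell, the variance of Hspa1 counts was 2.74 times their mean, where 1 is expected from counting alone. That ratio was 2.33 for Hspa1a alone, 1.81 for Hspa1b, 1.85 for Hspb1 and 1.65 for Hspa8, and it was between 0.974 for Ahsa1 and 1.30 for Hsp90aa1 for the other heat-shock genes.

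Both genes of the pair contributed. Hspa1a lies at chr17:34969190-34972156 and Hspa1b at chr17:34956436-34959238, both on the minus strand of GRCm38. At least 1 UMI of each was found in 447 of the high cells (79.1%), Hspa1a alone in 46 and Hspa1b alone in 72. Hspa1b made up 52.2% of the pair's 3051 UMIs in high cells (50.4 to 54.0), and 58.5% in the cells with 1 or 2 (55.6 to 61.4). In all gated cells it was 53.9% (52.4 to 55.4) in the 3-month PBS library, against 46.3% (36.0 to 56.8), 31.9% (26.6 to 37.7) and 21.6% (17.9 to 25.7) in the 12-month PBS, 3-month bleomycin and 12-month bleomycin libraries. The share was therefore lowest after bleomycin. The coding sequences of these genes are nearly alike, so reads could be split between them or lost, and their separate levels are uncertain. Hspa1l, the neighbouring testis-enriched relative, had 0 UMIs in the zero cells of every library.

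High cells were somewhat deeper than zero cells, with medians of 5051 and 4230 UMIs and of 1581 and 1434 genes. The high share went with depth, at 14.4%, 23.7%, 27.7% and 32.1% in 4 equal sets of 577 gated cells from the shallowest to the deepest, whereas the Hspa1 level did not increase over the same sets (416, 405, 396 and 347 CPM). All later comparisons therefore use cells thinned to 3000 UMIs, which kept 525 high and 702 zero cells. The median mitochondrial share was 5.199% in high and 5.23% in zero cells, and the median Sftpc share was 13.1% and 12.7%. Over 4 equal sets of gated cells by mitochondrial share, from low to high, the Hspa1 level was 342, 339, 411 and 471 CPM, and by Sftpc share it was 444, 401, 382 and 327 CPM, while the share of high cells lay between 23.2% and 26.7% in each of these sets. The part of either measure in the comparisons below was not tested. Of the 47 barcodes with the highest doublet scores, 16 were high cells (2.83% of them) and 11 zero cells (1.20%).

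The heat-shock genes other than Hspa1a and Hspa1b were higher as a group in Hspa1-high cells. Their summed level was 5737 CPM (5619 to 5856) in high cells and 3943 CPM (3858 to 4028) in zero cells, a ratio of 1.46 (1.41 to 1.499). Of 25 listed genes, 17 reached 50 CPM in at least 1 of both sets, and all 17 had a ratio above 1, where 49.8% of 2169 genes did. At least 1.5-fold higher were 4 of the 17, where 0.692% of all genes were (15 of 2169), and none was 1.5-fold lower, where 0.553% were. Past 2-fold were Hspb1 and Dnajb1, where 0.138% of genes were as much higher and 0.0461% as much lower. Their median log2 ratio was 0.48, and that of all genes 0.00 (5th to 95th percentile -0.31 to 0.32). Of the 8 genes below 50 CPM, 6 had a ratio above 1, Hspbp1 had 0.872 and Hspa1l had no UMI.

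**Figure D2:**
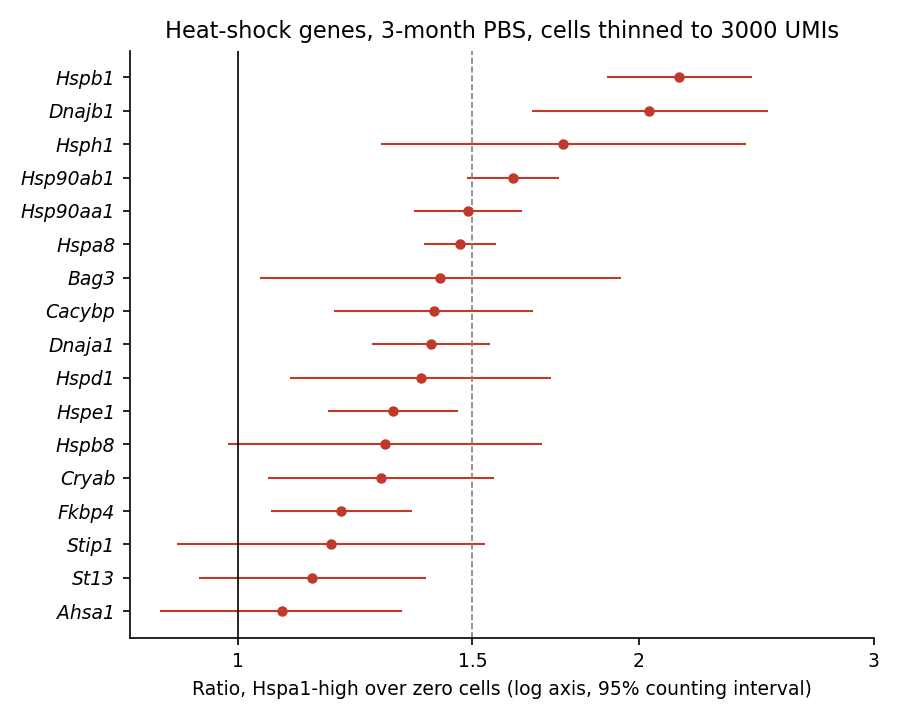
Ratio of levels in Hspa1-high over zero cells of the 3-month PBS library (log axis) for the 17 heat-shock genes at 50 CPM or more, with 95% counting intervals; the lines mark 1 and 1.5. All points lie right of 1, from 1.08 for Ahsa1 to 2.14 for Hspb1, and the intervals of Hspb8, Stip1, St13 and Ahsa1 reach 1.

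The small heat-shock protein Hspb1 (chr5:135887919-135889563), which holds unfolded proteins and binds actin, differed most among them. It was at 418 CPM in high cells, with a UMI in 57.7% of them, and at 195 CPM in zero cells, with a UMI in 39.5%, which is a 2.14-fold higher level (1.89 to 2.43). Without the cells with 10 or more Hspa1 UMIs the Hspb1 ratio was 1.88. Its relatives Cryab and Hspb8 differed less, with ratios of 1.28 (1.05 to 1.56) and 1.29 (0.984 to 1.69). Bag3, which joins small heat-shock proteins to HSP70, was 1.42-fold higher (1.04 to 1.94).

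The J-domain partner Dnajb1 (chr8:83608193-83612653), the classic stress-induced HSP40, was at 156 CPM in high cells and 76.4 CPM in zero cells, 2.03-fold higher (1.66 to 2.498). Dnaja1, a more abundant J-domain protein, was at 492 CPM in high cells and 352 CPM in zero cells (1.40-fold, 1.26 to 1.55). The J-domain genes Dnajb6 and Dnajb9 were nearer to 1, with ratios of 0.997 and 1.02. Of 19 listed J-domain genes, 7 reached 50 CPM, and 5 of these had a ratio above 1, where 49.8% of all genes did.

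Constitutive Hspa8 was at 1341 CPM in high cells (1284 to 1399) and 914 CPM in zero cells (874 to 956), 1.47-fold higher (1.38 to 1.56). The HSP110 gene Hsph1, a nucleotide exchange factor, was at 61.6 CPM in high cells and 35.1 CPM in zero cells, 1.75-fold higher (1.28 to 2.40). The HSP70 proteins of other compartments differed less: Hspa5, of the endoplasmic reticulum, had a ratio of 1.20 (1.05 to 1.36), and Hspa9, of mitochondria, 1.14 (0.909 to 1.42).

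Both cytosolic HSP90 genes were higher. Hsp90ab1 was at 857 CPM in high and 533 CPM in zero cells (1.61-fold, 1.49 to 1.74), and the inducible Hsp90aa1 at 606 and 407 CPM (1.49-fold, 1.36 to 1.63). Hsp90b1, the endoplasmic reticulum form, was at 280.0 and 280.6 CPM (0.998, 0.880 to 1.13). Among HSP90 co-chaperones, Cacybp had a ratio of 1.40, Fkbp4 1.20, Stip1 1.18, Ahsa1 1.08 and Cdc37, which delivers kinases to HSP90, 0.916. Chaperonins followed: Hspd1 (mitochondrial HSP60) was 1.37-fold higher (1.09 to 1.72), its partner Hspe1 1.31-fold (1.17 to 1.46) and the cytosolic ring subunit Cct3 1.42-fold (1.09 to 1.86), while the ring subunits Cct2 and Cct8 had ratios of 0.923 and 0.884. The gene of the regulator itself, Hsf1, was at 15.2 CPM in high and 13.8 CPM in zero cells (0.617 to 1.97 for the ratio).

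The relation with the summed heat-shock list was graded over the whole range and not set by the limit of 3. The summed heat-shock list was at 3943 CPM in cells with 0 Hspa1 UMIs, 4493 with 1, 5113 with 2, 5387 with 3 to 4, 5848 with 5 to 9 and 7295 with 10 or more. Intervals of neighbouring steps overlapped between 2 and 3 to 4 UMIs (4953 to 5278 and 5226 to 5552), and nowhere else. Hspa8 went in the same order through 914, 1029, 1147, 1243, 1383 and 1721 CPM. Hspb1 was at 195, 261, 352, 332, 409 and 992 CPM, so its highest level was in the last step. Immediate early genes together were at 3722, 3652, 3895, 3742, 3805 and 5287 CPM over the same steps, so the last (4897 to 5699, 43 cells) lay above the others. Single cells weighed on that step. Before thinning, 1 cell with 10 or more Hspa1 UMIs held 45 of the 58 Atf3 UMIs of such cells. For Ier5, 1 cell held 17 of 30. The immediate early gene Fos was between 197 and 271 CPM. The list summed for single cells overlapped widely: high cells had a median of 16 UMIs of it (interquartile range 13 to 21), and zero cells a median of 11 (8 to 15).

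**Figure D3:**
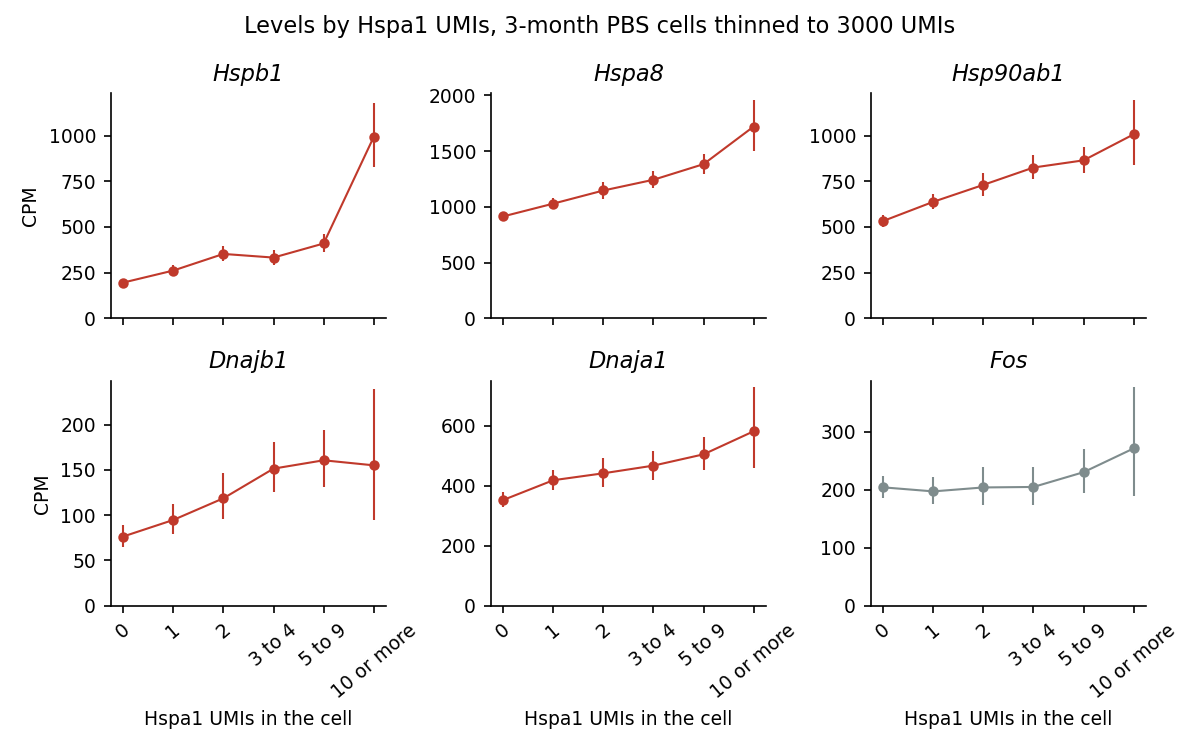
Levels in CPM, with 95% counting intervals, of 5 heat-shock genes (red) and the immediate early gene Fos (grey) in 3-month PBS gated cells thinned to 3000 UMIs, by the cell's Hspa1 UMIs before thinning. Hspa8, Hsp90ab1 and Dnaja1 are higher at each step, and Fos has overlapping intervals throughout.

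Immediate early genes, many but not all of them transcription factors, are switched on within minutes by growth factors, injury or tissue dissociation. They were close to equal as a group. Their sum was 3895 CPM in high and 3722 CPM in zero cells (1.05-fold, 1.01 to 1.08). Of 17 at 50 CPM or more, 10 had a ratio above 1 (49.8% of all genes did) and 1 was at least 1.5-fold higher (0.692% of all genes). Jun was at 289 CPM in high and 304 CPM in zero cells (0.951, 0.841 to 1.07), and Fos at 221 and 204 CPM (1.08, 0.937 to 1.249). Egr1 was at 92.7 and 69.3 CPM (1.34, 1.06 to 1.69). The 1 gene past 1.5 was Atf3, a stress-induced repressor, at 55.9 CPM in high and 22.3 CPM in zero cells (2.504, 1.74 to 3.65). Before thinning, 1 high cell held 45 of the 144 Atf3 UMIs. With high cells of 3 to 9 Hspa1 UMIs the Atf3 ratio was 1.46 (0.951 to 2.23).

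Identity genes differed little. The 19 surfactant and AT2 genes (Sftpc left out, since it is in the gate) summed to 95368 CPM in high and 93859 CPM in zero cells, a ratio of 1.02 (1.01 to 1.02), and 12 of the 19 were above 1, where 49.8% of all genes were. The surfactant proteins Sftpa1 and Sftpb had ratios of 1.05 and 1.01, and the lysozyme Lyz2 1.001. The lowest of the 19 was Nkx2-1, a lung lineage transcription factor, at 264 CPM in high and 326 CPM in zero cells (0.811, 0.716 to 0.917). AT1 genes, of the flat gas-exchange cell, had a summed ratio of 0.984 (0.949 to 1.02), fatty acid and phospholipid genes 0.974 (0.956 to 0.993), MHC class II genes 1.05 (1.03 to 1.08) and ribosomal protein genes 0.990 (0.985 to 0.995).

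Unfolded protein response genes of the endoplasmic reticulum were slightly higher in high cells, at 2554 CPM against 2248 CPM in zero cells (1.14, 1.09 to 1.19). Among its 14 genes at 50 CPM or more, 12 had a ratio above 1, where 49.8% of all genes did, and 1 was at least 1.5-fold higher, where 0.692% were. That was Creld2, at 1.53 (1.17 to 2.00), or 1.24 without thinning. Herpud1, a component of protein disposal from the reticulum, was 1.255-fold higher (1.12 to 1.41) and Manf 1.24-fold (1.06 to 1.45). The proteasome and ubiquitin list had a ratio of 1.08 (1.04 to 1.11) and the NRF2 antioxidant list 0.951 (0.931 to 0.972). Transitional alveolar genes, which mark AT2 cells on the way to AT1, had a summed ratio of 1.15 (1.11 to 1.21). All 11 at 50 CPM or more were above 1, where 49.8% of all genes were, and 1 was at least 1.5-fold higher, where 0.692% were. Among the 11 were the annexin Anxa1 (1.64, 1.18 to 2.27), the secreted chaperone clusterin Clu (1.46, 1.16 to 1.84), and the keratins Krt19 (1.45, 1.10 to 1.91) and Krt8 (1.31, 1.12 to 1.53). Cldn4, the claudin that marks transitional cells most clearly, had 0.635 CPM in high cells, which was 1 UMI, and 0 in zero cells.

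**Figure D4:**
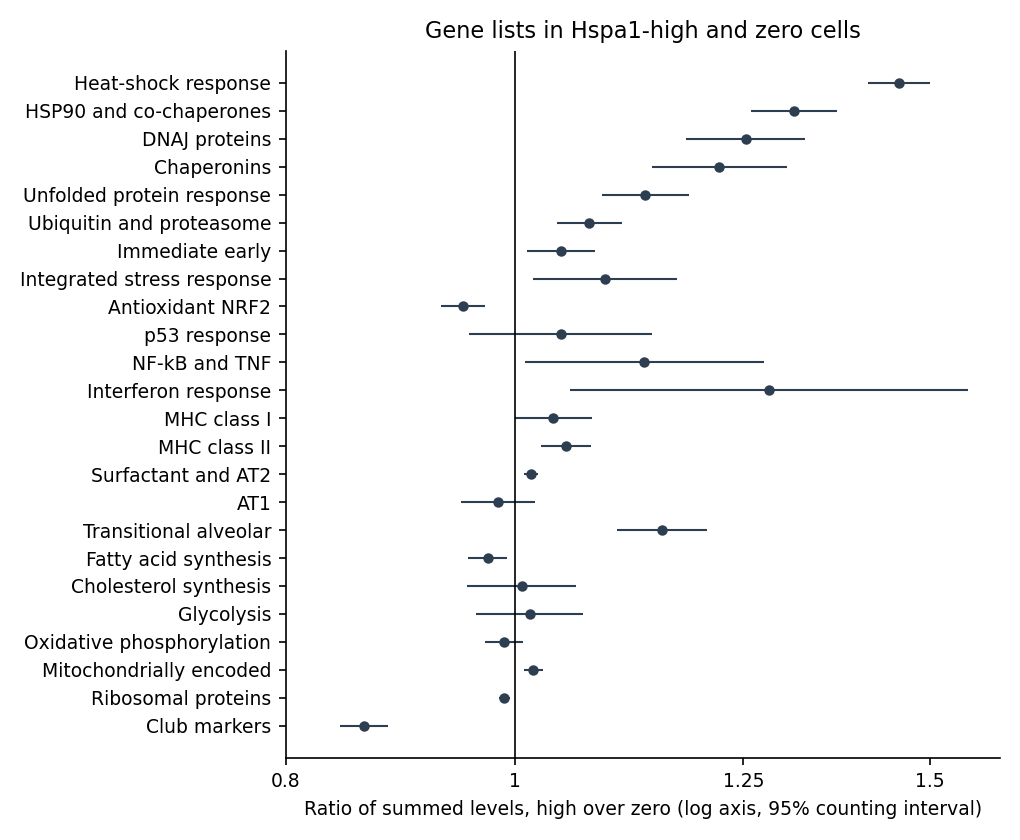
Ratio of summed levels in Hspa1-high over zero cells (log axis) for 24 gene lists, with 95% counting intervals. The heat-shock list is the highest at 1.46, the surfactant and AT2 list is at 1.02, and the club cell list is at 0.863, a sum to which 1 zero cell gave 1440 UMIs.

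Outside these groups, Serpinh1 (chr7:99345376-99353239), the collagen chaperone HSP47, had one of the firmer differences. It was at 178 CPM in high and 106 CPM in zero cells (1.68-fold, 1.41 to 2.02). Nfkbia, the inhibitor that NF-kB itself induces, was at 79.4 and 49.9 CPM (1.59, 1.22 to 2.08). Phb, Os9 and Tuba1c were also past 1.5, but their ratios without thinning were 1.30, 1.15 and 1.34. The genes at least 1.5-fold lower were near the 50 CPM limit in the main: Nnat had a ratio of 0.585 (0.409 to 0.825), H6pd 0.589, Abca17 0.602, and Spry1, a feedback inhibitor of FGF signalling, 0.641 (0.516 to 0.793) with 82.5 CPM in high and 129 CPM in zero cells. Without thinning these 4 ratios were 0.706, 0.729, 0.724 and 0.764.

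Markers of other cell types were compared for the same sets. Club cell markers, of the secretory airway cell, summed to 7262 CPM in high and 8413 CPM in zero cells (0.863, 0.843 to 0.884). Few cells carried that difference: the median was 19 UMIs of these markers per cell in both sets, and 1 zero cell had 1440. Before thinning, 3 zero cells held 61.3% of the Scgb1a1 UMIs of zero cells. Yet 565 of 565 high and 909 of 913 zero cells had at least 1 Scgb1a1 UMI, and the part of free RNA in this was not tested. Scgb3a2 was at 20.95 CPM in high and 52.2 CPM in zero cells, and 1 zero cell held 271 of the 413 Scgb3a2 UMIs before thinning. Without cells that had over 5% of UMIs from club markers (3 high and 6 zero cells), the Scgb3a2 ratio was 0.690. Macrophage markers were at 7.62 CPM in high and 6.17 CPM in zero cells (8 of 12 at 0 in both), and endothelial markers at 20.3 and 19.5 CPM. Platelet markers were at 10.2 CPM in high cells (16 UMIs) and 20.9 CPM in zero cells (44 UMIs), a ratio of 0.486 (0.256 to 0.879). T and NK cell, mesothelial and basal cell markers were at 0 in both sets.

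The zero cells of the 3-month PBS library themselves had more heat-shock transcripts than zero cells of the other libraries. Their summed list was at 3943 CPM, against 2183 CPM in 12-month PBS, 2562 CPM in 3-month bleomycin and 2649 CPM in 12-month bleomycin zero cells. Hsph1 was at 35.1 CPM in zero cells of the 3-month PBS library, against 4.46, 5.24 and 4.996 CPM, Hsp90aa1 at 407 CPM against 193, 199 and 166, and Hspb1 at 195 CPM against 75.9, 97.1 and 54.3. None of these intervals overlapped those of the 3-month PBS library. Cryab was not ordered this way, at 103 CPM against 79.1, 124 and 126 CPM. Since a cell with 0 counted UMIs may still contain the transcript, zero cells are cells without a counted UMI and not cells without Hspa1.

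**Figure D5:**
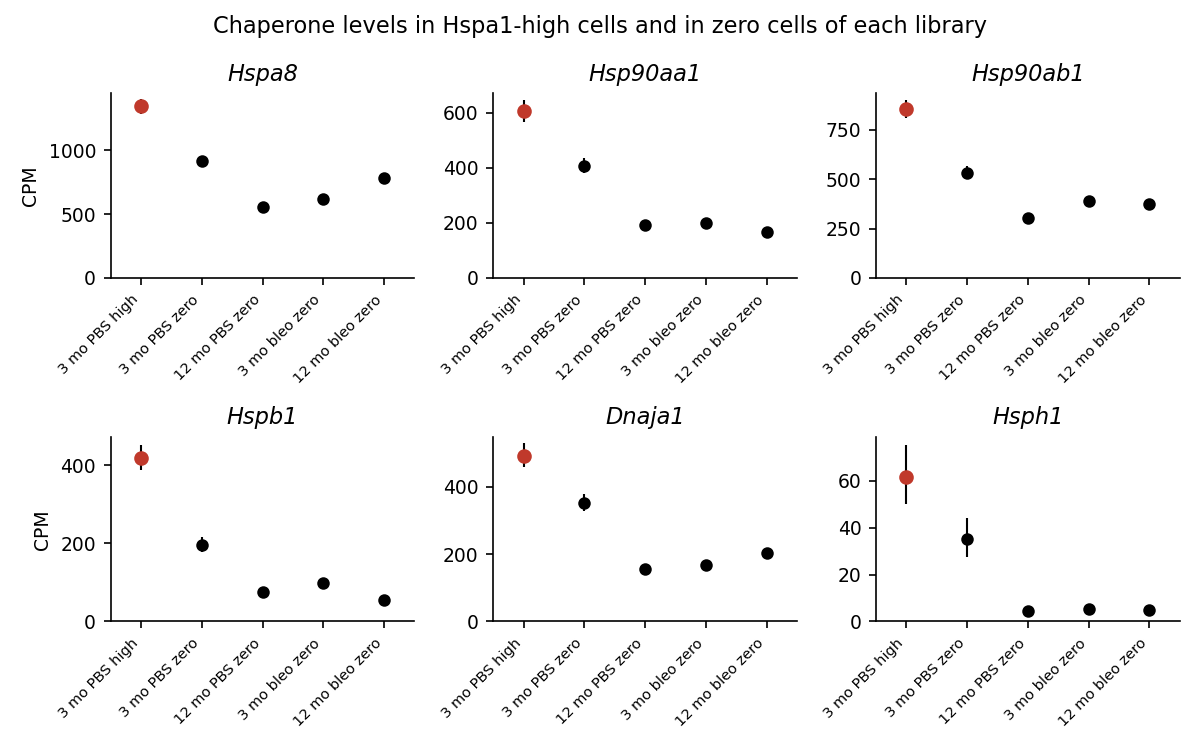
Levels in CPM, with 95% counting intervals, of 6 heat-shock genes in Hspa1-high cells of the 3-month PBS library (red) and in zero cells of the 4 libraries (black), all thinned to 3000 UMIs. High cells are the highest for each gene, and zero cells of the 3-month PBS library come next.

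The few high cells of the bleomycin libraries allowed the same ratio to be set beside that of the 3-month PBS library. Their heat-shock list was 1.37-fold higher than in zero cells at 3 months (1.18 to 1.59, 18 high cells) and 1.37-fold at 12 months (1.21 to 1.54, 26 high cells), beside 1.46 in the 3-month PBS library. Their Hspa1 level was 426 and 282 CPM, beside 1072 CPM. The high cells compared had median depths of 10381.5 and 15376 UMIs, beside 5132. The limit of 3 UMIs was applied before thinning and so stands for a lower level in deeper cells. It therefore sets these Hspa1 levels in part, and the high sets of the libraries are not alike. Other values moved with these few cells: basal cell markers had 12 UMIs in the 18 high cells and 3 in 2035 zero cells at 3 months, and 3 of the 26 high cells at 12 months were among the top doublet scores (11.5%, against 2.30% of zero cells). Their part in these ratios was not tested. Immediate early genes stood differently, with ratios of 2.30 (2.09 to 2.53) and 1.64 (1.52 to 1.77) in these libraries, beside 1.05. Egr1 was at 296 CPM in high and 82.6 CPM in zero cells of the 3-month bleomycin library and at 423 and 186 CPM in the 12-month one. With 1 library of each kind, this difference between libraries was not tested.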

How the data were processed

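Cells were FACS-sorted and sequenced with the 10x Genomics 3' kit, per the labels' protocols. The deposited values are UMI counts per gene and barcode, made by the authors with Cell Ranger on mm10, per the submitters' processing notes, which also name Seurat 3.2.2 and no version of Cell Ranger. All 27998 listed genes were read, and the files hold whole numbers. Total counts were 11381566 in the 3-month PBS library.

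The members, gene lists and alternatives were chosen with earlier results of these data known. Cells were thinned without replacement to 3000 UMIs, the highest multiple of 500 that 80% of high and zero cells reach, and counts were summed per set. Ratios have exact conditional-binomial intervals, levels exact Poisson and shares Clopper-Pearson intervals, all at 95%. A gene was compared at 50 CPM or more in either set and counted from 1.5-fold. The 12 highest and 12 lowest ratios among these were eligible for naming (mitochondrial, ribosomal protein, haemoglobin, immunoglobulin and predicted genes and the selecting genes left out), with every heat-shock gene at 50 CPM and up to 4 members of the other lists by level. Further genes named in the text were chosen after their values were seen: Hspa9, Dnajb9, Cdc37, Cct2, Cct3, Cct8, Hsf1, Fos, Egr1, Manf, Clu, Krt8, Krt19, Cldn4, Nkx2-1, Hspbp1 and Hspa1l. No test was run, as a group is 1 library. Of the list symbols, 3 are absent from the gene table used. Scrublet's own threshold in scanpy 1.11.5 called 0 barcodes, so the expected number with the highest scores was left out as an alternative. The intervals were checked on simulated counts in which all cells of a set had the same profile. That check does not cover variation between cells, which the real counts have. Coordinates are from GENCODE M21 (GRCm38), which held 27645 of the gene identifiers (98.7%). Python 3.11.15, numpy 2.4.6, scipy 1.17.1, pandas 2.3.3 and matplotlib 3.10.9 were used.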

Additional observations from a re-analysis of the deposited data

Results flagged for a closer look

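Mitochondrially encoded genes stood at a ratio of 1.02 (1.01 to 1.03) in Hspa1-high over zero cells of the 3-month PBS library, and at 0.838 (0.798 to 0.878) and 0.808 (0.770 to 0.848) in the 3-month and 12-month bleomycin libraries, where the high cells number 18 and 26. The ratio therefore lies above 1 in one library and below 1 in both others, and this difference was not tested.

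A signal also appeared in cells that the comparisons do not use. In the 3-month PBS library 29.1% of the 86 cells outside the Sftpc gate had 3 or more Hspa1 UMIs, against 1.14% of 175, 2.77% of 325 and 1.47% of 543 in the 12-month PBS, 3-month bleomycin and 12-month bleomycin libraries. At 3000 UMIs per cell these shares were 19.6% of 51, 0 of 96, 1.504% of 266 and 0.737% of 543.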

How the results depend on the processing

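No paired analysis was possible because each group is 1 library. The high to zero ratios of the 3 libraries with high cells were set side by side and not tested together. The share of high cells was 37.0% from 2 UMIs, 12.0% from 5 UMIs and 15.6% when the limit was applied to thinned counts. The heat-shock ratio of 1.46 was above 1 under all 16 alternatives run on it, from 1.40 in the shallower cells to 1.85 from 10 UMIs, with 1.54 from 5 UMIs and 1.5003 at 10% Sftpc. Of its 17 genes, Ahsa1 and St13 had a ratio below 1 in some setting (lowest 0.991 and 0.972) and the other 15 in none. The immediate early ratio was 1.09 from 5 and 1.42 from 10 UMIs. The surfactant and AT2 ratio of 1.02 was 1.03 without thinning, 1.03 at 2000 UMIs, 1.01 with the limit on thinned counts, 1.03 from 5 and 1.11 from 10 UMIs, 1.003 in the deeper cells, 1.01 from 3 to 9 UMIs, and 0.999, on the other side of 1, in the shallower cells.

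The numbers of genes past the fold are not stable. Against 15 higher and 12 lower, they were 9 and 2 without thinning, 18 and 20 at 2000 UMIs, 23 and 14 with the limit on thinned counts, 36 and 37 from 5 UMIs, 350 and 273 from 10 UMIs (43 high cells), and 42 and 24 when scaled without the 20 most abundant genes. They were 96 and 76 in the shallower and 33 and 20 in the deeper cells, 100 and 106 from 20 CPM, 4 and 1 from 100 CPM, 107 and 102 with a lower fold limit, and 3 and 1 at 2-fold. With Sftpc at 10%, 23 were higher. From 10 UMIs the Scgb3a2 ratio was 1.04. Another thinning draw gave 20 and 12. The alternatives by depth, draw, club markers, Atf3 and 3 to 9 UMIs were added after seeing the data. Genes near 50 CPM have about 100 UMIs per set, so their single ratios are loosely known.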
